A study of Mus musculus with 6 samples.

Results

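Gasdermins are membrane pore proteins, and inflammasomes are the sensor complexes whose caspases cut 1 of them, gasdermin D. The expression of 10 of these mouse genes was examined in tongue tumours that did or did not overexpress LIGHT, a TNF superfamily ligand encoded by Tnfsf14. The genes were picked by symbol from the 18437 genes in the table. They comprise the gasdermins Gsdma, Gsdmc and Gsdmd, the sensors Nlrp3, Aim2, Zbp1 and Naip5, the adaptor Pycard, and the caspases Casp1 and Casp4. All 10 were found, and all 10 reached 1 TPM in at least 3 libraries, as did 13167 genes in all. TPM is a length-corrected share of transcripts, so levels can be compared between genes within a library.

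The tumours were grown from the 4MOSC1 line, a murine oral squamous carcinoma, placed orthotopically in the tongue of C57BL/6 mice. The control group (3 libraries) received 4MOSC1-con cells, and the LIGHT group (3 libraries) received 4MOSC1-LIGHT cells. All tumours thus share the line and the host strain, and every library is of whole tumour tissue. Neither the age of the mice nor the construct and number of clones behind LIGHT was given in the sources used here. The labels tie no library to an animal, so a p-value here covers only the spread among the samples, which may be technical.

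When a pattern recognition sensor of the inflammasome meets its trigger, it recruits the adaptor ASC (encoded by Pycard) and activates caspase-1, which matures interleukin-1 beta and interleukin-18 and cuts gasdermin D. The freed amino-terminal part of gasdermin D then forms pores in the plasma membrane, a lytic death called pyroptosis. Caspase-11 (encoded by Casp4 in the mouse) binds bacterial lipopolysaccharide directly and cuts gasdermin D without such a platform. In squamous epithelia the gasdermins A and C are expressed by keratinocytes, whereas the canonical sensors are best known from macrophages, and several of these genes are induced by interferons.

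Tnfsf14 stood at 0.66, 0.53 and 0.79 TPM in control libraries and at 26.2, 25.9 and 23.9 TPM in LIGHT libraries, which fits the labels. Keratinocyte markers were abundant in all 6 libraries, with 7 basal markers summing to between 11958 and 18525 TPM. B cell markers stayed low in sum over 5 genes, at 0.3 to 0.98 TPM in control and 1.35 to 1.83 TPM in LIGHT libraries. LIGHT replicate 2 held the lowest or the highest sum in 6 of 12 marker lists, against 7 for control replicate 1 and 1 to 5 for the other 4 libraries. Its red blood cell markers summed to 2086 TPM against 70.0 to 896 TPM in the other 5 libraries, its skeletal muscle markers to 6651 against 2712 to 5026 TPM, and its basal keratinocyte markers to 11958 against 15307 to 18525 TPM. Its neutrophil list summed to 420 against 1376 to 2962 TPM, which was carried by S100a8 and S100a9, genes that keratinocytes express too. The other 7 neutrophil markers summed to 61.1 TPM in that library, the highest of the 6, against 23.1 to 51.0 TPM. Retnlg alone made up 33.7 TPM of that sum. Csf3r was highest in control replicate 3 (24.8 TPM) and Cxcr2 in LIGHT replicate 3 (4.51 TPM). Among all tested genes 17.7% were called higher and 5.41% lower in LIGHT tumours (limma, Benjamini-Hochberg adjusted p under 0.05). The 3 LIGHT libraries lay wholly above the control libraries in 29.6% of tested genes. The median difference over all tested genes was 0.09 on the log2(TPM + 1) scale with the deposited values and -0.04 after trimmed-mean or quantile scaling, so small differences depend on the scaling. The balance of calls depended on it too: 76.6% of the called genes were higher with the deposited values, 44.9% after trimmed-mean scaling (1637 higher and 2005 lower) and 43.7% after quantile normalization (1410 and 1813).

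Of the 10 genes, 5 rose in LIGHT tumours and 0 fell, beside the 17.7% and 5.41% of all tested genes. They were Casp4, Zbp1, Pycard, Gsdmd and Aim2, each between 1.58-fold and 1.97-fold higher in the group means. Gsdma, Gsdmc, Nlrp3, Naip5 and Casp1 were not called. In 6 of the 10 genes the LIGHT libraries all lay above the control libraries (29.6% of all tested genes), and the median difference was 0.65 on the log2 scale. By role, 1 of 3 gasdermins, 2 of 4 sensors, the adaptor and 1 of 2 caspases rose. The median difference was 0.65 for the gasdermins, which is the value of Gsdmd alone. It was 0.50 for the sensors and caspases, and 0.64 when the adaptor was counted with them. Gasdermins, sensors and caspases each held called and uncalled genes. In bulk tissue, more cells of a type and more RNA per cell cannot be told apart.

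**Figure D1:**
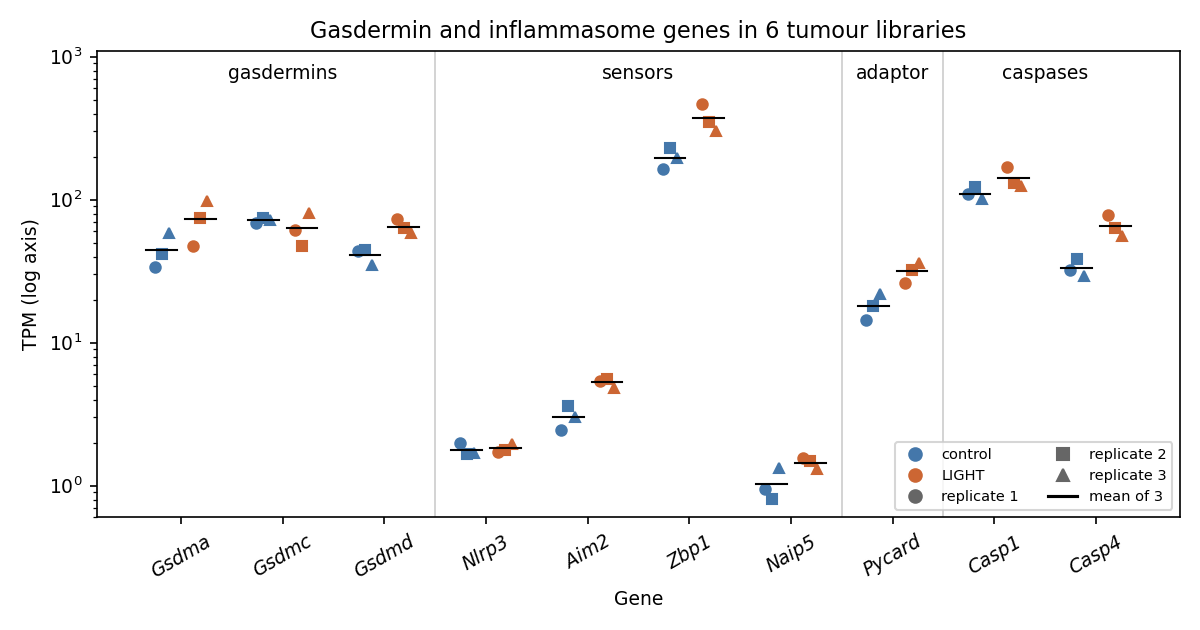
TPM on a log axis of the 10 genes in each of the 3 control and 3 LIGHT libraries, grouped by role. Points are libraries, with the replicate number as the symbol, and bars are means of 3. In Gsdmd, Aim2, Zbp1, Pycard, Casp1 and Casp4 the LIGHT points all lie above the control points, while in Gsdma, Gsdmc, Nlrp3 and Naip5 they overlap.

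Zbp1, a sensor of Z-form nucleic acid that can start both necroptosis and inflammasome activity, was the most abundant of the 10 genes. Its level was 165, 229 and 196 TPM in control libraries and 466, 351 and 304 TPM in LIGHT libraries. The lowest LIGHT library thus stood above the highest control library, and LIGHT replicate 1 was the highest. The mean went from 196 ± 31.7 to 374 ± 83.3 TPM (SD, n = 3 each), 1.90-fold higher, with a log2 difference of 0.91 (SE 0.18, limma adjusted p = 0.0111). It sits at 173206612 to 173218959 on chromosome 2 (GRCm38.p6).

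Aim2, a cytosolic sensor of double-stranded DNA that assembles its own inflammasome, was present at much lower levels. It stood at 2.47, 3.60 and 3.03 TPM in control libraries and at 5.43, 5.54 and 4.84 TPM in LIGHT libraries. The groups did not overlap, and the LIGHT libraries were close to each other. The mean was 1.74-fold higher (log2 difference 0.64, SE 0.13, limma adjusted p = 0.0136). The call was lost after quantile normalization (log2 difference 0.41, adjusted p = 0.0597).

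The window around an Aim2 start is shown because it was the only one of the 8 available windows of these genes with the 9-letter NF-kB core GGGANTTTC. RefSeq windows (GRCm38.p6, 250 bases before to 50 after a start) were given for 6 of the 10 genes: Aim2, Pycard, Casp1, Casp4, Nlrp3 and Naip5. They were searched on both strands, overlaps allowed, for that core, for the interferon-stimulated response element core GAAANNGAA and for the interferon gamma activated site TTCNNNGAA. Of 32851 mouse windows of the same length, 1.11%, 8.56% and 8.30% hold these letters. The Aim2 match runs from -154 to -146 relative to the start, and neither interferon motif was found in any of the 8 windows, which says only that those letters are not there. The window is chr1:173420354-173420653, plus strand, with the match in capitals.
Aim2: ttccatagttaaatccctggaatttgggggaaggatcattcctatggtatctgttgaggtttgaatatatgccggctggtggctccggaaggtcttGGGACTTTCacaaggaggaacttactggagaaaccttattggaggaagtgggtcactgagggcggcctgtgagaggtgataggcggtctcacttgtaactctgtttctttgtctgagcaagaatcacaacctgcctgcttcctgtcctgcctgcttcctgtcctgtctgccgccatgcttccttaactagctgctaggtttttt

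Nlrp3, the sensor of ion flux and membrane damage best known from macrophages, did not follow Zbp1 and Aim2. Its level was 2.00, 1.67 and 1.70 TPM in control libraries and 1.73, 1.78 and 1.97 TPM in LIGHT libraries. The groups overlapped throughout. The log2 difference was 0.02 (SE 0.11, limma adjusted p = 0.919), and its sign depended on the setting.

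Naip5, which binds flagellin and passes the signal to Nlrc4, was the lowest of the 10 genes. It stood at 0.95, 0.81 and 1.34 TPM in control libraries and at 1.55, 1.48 and 1.31 TPM in LIGHT libraries. The highest control library lay within the LIGHT range (log2 difference 0.27, SE 0.14, limma adjusted p = 0.188). The neighbouring Naip genes on chromosome 13 are close copies of it and can share its reads.

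Pycard, which encodes the adaptor ASC, stood at 14.5, 18.0 and 22.1 TPM in control libraries and at 26.3, 32.4 and 36.4 TPM in LIGHT libraries. The groups did not overlap, and the nearest pair was 4.21 TPM apart. The mean was 1.74-fold higher (18.2 ± 3.79 to 31.7 ± 5.08 TPM, n = 3 each), with a log2 difference of 0.77 (SE 0.17, limma adjusted p = 0.0174). The call was narrow: trimmed-mean scaling removed it (adjusted p = 0.0506), as did leaving out replicate 2 of the control group, replicate 2 of the LIGHT group or LIGHT replicate 3 (adjusted p = 0.0503, 0.0518 and 0.0613). The log2 difference was between 0.63 and 0.92 with any 1 library left out.

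Casp4, the lipopolysaccharide-binding caspase-11, showed the largest difference of the 10 genes with the deposited values. Its level was 32.2, 38.7 and 29.1 TPM in control libraries and 78.1, 63.8 and 55.3 TPM in LIGHT libraries. The lowest LIGHT library stood at 1.43 times the highest control library. The mean went from 33.3 ± 4.89 to 65.7 ± 11.5 TPM (1.97-fold, log2 difference 0.95, SE 0.15, limma adjusted p = 0.00566), and the gene was called in all 15 other settings tried.

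Casp1, the caspase of the canonical inflammasome, lies next to Casp4 on chromosome 9, from 5298517 to 5307281, with 1567 bases between them. It was the more abundant gene, at 109, 122 and 101 TPM in control libraries and 170, 131 and 125 TPM in LIGHT libraries. The groups did not overlap, but the gap was 2.93 TPM and LIGHT replicate 1 stood far above the other LIGHT libraries. The log2 difference of 0.35 (SE 0.13) missed the threshold (limma adjusted p = 0.0961), as it did in all 15 other settings.

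Because both caspases were measured in the same libraries, a scaling factor per library cancels in their ratio. Casp4 stood at 0.30 ± 0.01 of the Casp1 level in control tumours and at 0.46 ± 0.02 in LIGHT tumours (SD, n = 3 each). The ratio was 0.296, 0.317 and 0.289 against 0.458, 0.486 and 0.443, so the spread within each group was small beside the step between them. The exact two-sided permutation p was 0.1, the smallest that 3 against 3 allows, and 0.233 adjusted over the 7 ratios computed, which were chosen after the levels were seen. Casp12, the next gene along the same chromosome from 5345442 to 5373034, rose as well. It stood at 17.7, 24.6 and 19.2 TPM in control and 55.4, 43.6 and 41.4 TPM in LIGHT libraries (log2 difference 1.15, SE 0.15, limma adjusted p = 0.00319). Casp12 encodes a caspase of the same inflammatory group, and its call held in all 15 other settings. The 3 neighbours thus differed by 0.35, 0.95 and 1.15 on the log2 scale in the order Casp1, Casp4 and Casp12.

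The windows around the starts of Casp4 and Casp1 are shown because the genes are adjacent and Casp4 was called while Casp1 was not. The longer, degenerate NF-kB consensus GGGRNNYYCC (R is A or G, Y is C or T) was searched after the sequences had been seen. It is held by 8.46% of the 32851 windows. In the window of Casp4 (chr9:5308599-5308898, plus strand) it matched a stretch from -93 to -83, where overlapping matches lie on both strands, and another from -39 to -30. The window of Casp1 (chr9:5298267-5298566, plus strand) holds no match to any of the 4 motifs. The consensus also matched at 1 place each in a window of Nlrp3 and in that of Naip5, genes that were not called. It had no match in the windows of Aim2 and Pycard, genes that were called. Matches are in capitals.
Casp4: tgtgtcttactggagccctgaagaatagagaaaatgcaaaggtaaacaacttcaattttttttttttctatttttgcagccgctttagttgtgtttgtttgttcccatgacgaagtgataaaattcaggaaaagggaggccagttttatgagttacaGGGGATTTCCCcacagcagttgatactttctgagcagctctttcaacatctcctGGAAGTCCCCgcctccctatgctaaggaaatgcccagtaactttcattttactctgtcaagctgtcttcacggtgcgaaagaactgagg
Casp1: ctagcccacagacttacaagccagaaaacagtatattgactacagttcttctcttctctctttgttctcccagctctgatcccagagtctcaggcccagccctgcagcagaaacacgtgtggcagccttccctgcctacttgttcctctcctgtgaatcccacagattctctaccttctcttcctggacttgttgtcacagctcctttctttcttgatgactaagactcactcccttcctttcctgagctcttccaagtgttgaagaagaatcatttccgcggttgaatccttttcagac

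Gsdmd, the gasdermin cut by caspase-1 and caspase-11, was the gasdermin that rose. Its level was 43.5, 44.7 and 35.1 TPM in control libraries and 73.0, 63.6 and 58.1 TPM in LIGHT libraries. The groups did not overlap. The mean was 1.58-fold higher (41.1 ± 5.27 to 64.9 ± 7.52 TPM), with a log2 difference of 0.65 (SE 0.12, limma adjusted p = 0.0111), and it was called in all 15 other settings. It sits at 75862144 to 75867408 on chromosome 15.

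Gsdmc, an epithelial gasdermin on the same chromosome (63775971 to 63808739), went the other way in its mean but was not called. It stood at 68.4, 74.1 and 72.5 TPM in control libraries and at 61.0, 47.4 and 81.2 TPM in LIGHT libraries. The control libraries were close together, while the LIGHT libraries included both the lowest and the highest value of the 6. The log2 difference was -0.21 (SE 0.18, limma adjusted p = 0.42), and it was -0.02 without LIGHT replicate 2 and -0.41 without LIGHT replicate 3. LIGHT replicate 2 held both the lowest Gsdmc and the lowest basal keratinocyte sum, and the part of that sum in the Gsdmc value was not tested.

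Gsdma, a gasdermin of differentiated squamous cells on chromosome 11 (98664337 to 98677708), varied widely within each group. Its level was 33.8, 41.8 and 58.7 TPM in control libraries and 47.4, 74.4 and 98.0 TPM in LIGHT libraries. The LIGHT mean was 1.64 times the control mean, against 1.58 times for Gsdmd, but the groups overlapped. The log2 difference of 0.67 (SE 0.28) missed the threshold (limma adjusted p = 0.125). It passed without LIGHT replicate 1 (log2 difference 0.95, adjusted p = 0.0329) and with the replicate number as a block (0.67, SE 0.09, adjusted p = 0.0122), and the difference was 0.44 without LIGHT replicate 3.

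The order of the replicates in Gsdma was that of Pycard in both groups. It was the reverse of that of Gsdmd and Casp4 in the LIGHT group only. In the control group Gsdmd and Casp4 were highest in replicate 2, which held the middle Gsdma value. Replicate 3 of each group held its highest Gsdma and Pycard and its lowest Gsdmd, Casp1 and Casp4. In the LIGHT group, replicate 1 held the lowest Gsdma and Pycard and the highest Gsdmd, Casp1, Casp4 and Zbp1. The interferon response list was highest in LIGHT replicate 1, with a sum of 5695 TPM over its 9 listed genes, against 4026 and 3529 TPM in the other LIGHT libraries. With 3 libraries a group these orders are a description only.

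The makeup of the gasdermin transcripts was compared next. Summed over the 10 gasdermin family genes listed, the control tumours held 160 ± 10.6 TPM and the LIGHT tumours 204 ± 31.6 TPM. Gsdmc made up 46.0%, 45.3% and 42.9% of that sum in the control libraries and 33.2%, 25.2% and 33.8% in the LIGHT libraries, so the groups did not overlap. Gsdma made up 27.7% ± 6.30 and 35.4% ± 8.29, and Gsdmd 25.8% ± 4.47 and 32.6% ± 7.86 (SD, n = 3 each), both with overlapping groups. The ratio of Gsdmd to Gsdmc was 0.575 ± 0.080 in control and 1.09 ± 0.33 in LIGHT tumours, with no overlap (exact two-sided permutation p = 0.1, and 0.233 adjusted over the 7 ratios). Gsdmd to Gsdma did not differ beyond the spread (0.985 ± 0.353 and 0.996 ± 0.488, exact permutation p = 0.9, and 0.9 adjusted).

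**Figure D2:**
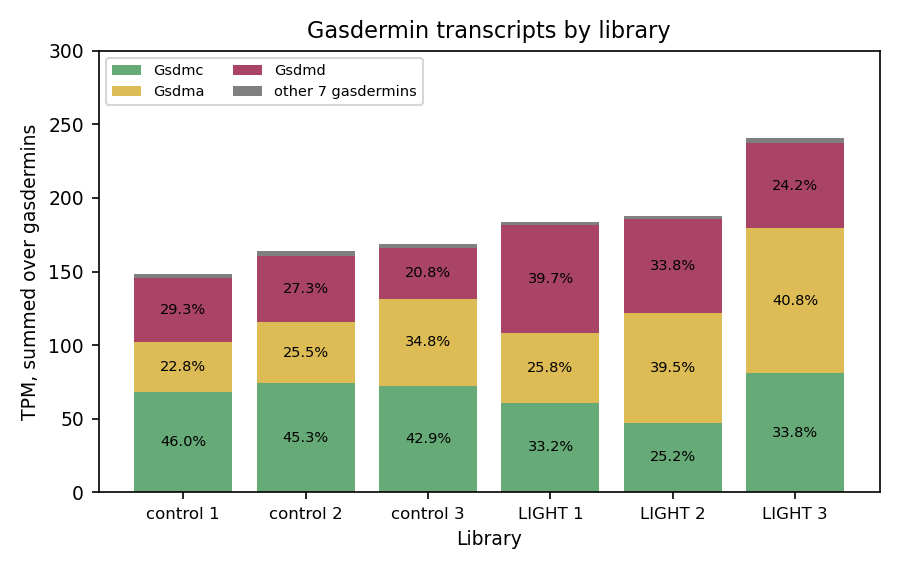
TPM summed over the gasdermin family in each of the 6 libraries (bars), split by gene, with the share of the library's gasdermin sum printed as a percent. Gsdmc is 42.9% to 46.0% of the sum in the control libraries and 25.2% to 33.8% in the LIGHT libraries, while the other 7 gasdermins are a thin layer on top.

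The other 7 family members were near the floor. Gsdme, cut by caspase-3, was the highest of them, at 1.01 to 1.48 TPM, and the only one tested (log2 difference 0.05, SE 0.13, limma adjusted p = 0.818, and -0.21 after quantile normalization). Gsdma2, Gsdma3, Gsdmc2, Gsdmc3, Gsdmc4 and Pjvk were under the filter. Gsdmc4, singled out after its values were seen, had 0.41, 0.53 and 0.42 TPM in control and 0.29, 0.12 and 0.20 TPM in LIGHT libraries (exact two-sided permutation p = 0.1). With no filter on low values it was called lower (log2 difference -0.27, limma adjusted p = 0.0445). Gsdma2 and Gsdma3 lie beside Gsdma, and Gsdmc2 to Gsdmc4 beside Gsdmc, as close copies that can share reads, so the split within each cluster is uncertain.

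**Figure D3:**
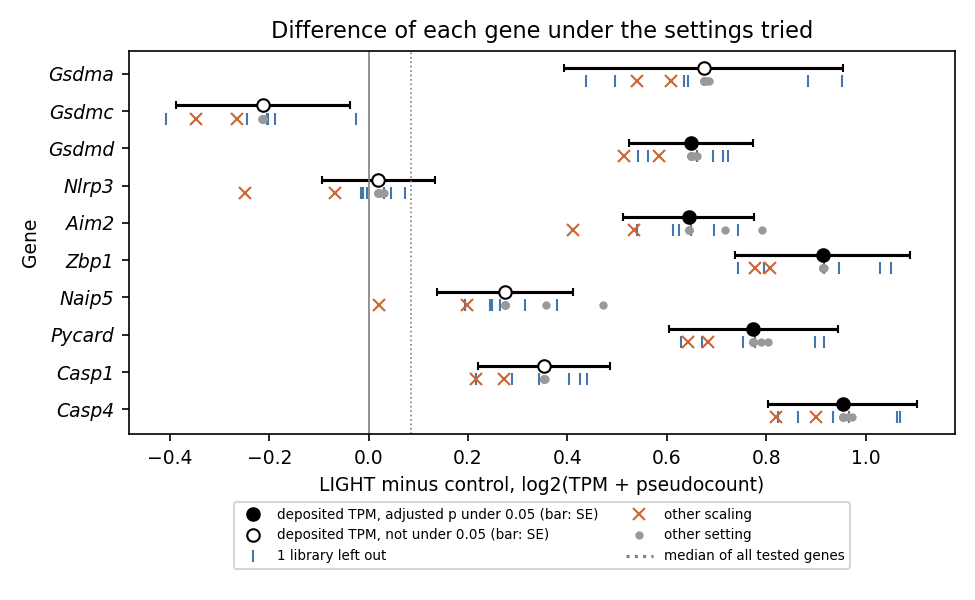
LIGHT minus control difference of each of the 10 genes on the log2 scale. Circles with bars are the deposited TPM with the SE (filled where the adjusted p is under 0.05), ticks leave 1 library out, crosses use another scaling, grey dots the remaining settings, and the dotted line is the median of all tested genes at 0.09. Gsdmd, Zbp1 and Casp4 stay at 0.51 or more throughout, while Nlrp3 lies on both sides of 0.

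Of 54 other genes fixed as pathway lists, 53 were in the table, 39 were tested, 18 rose and 2 fell, beside 17.7% and 5.41% of all tested genes. Their median difference was 0.42 on the log2 scale, against 0.09 over all tested genes. The number that rose was 15 after trimmed-mean scaling, 13 after quantile normalization and 9 with no filter on low values, and it lay between 7 (without control replicate 3) and 13 with 1 library left out. The number was 11 in each of the fits that lacked replicate 1 of either group or LIGHT replicate 2. With trimmed-mean factors 4 fell, beside 2005 of all 13167 tested genes. The number that fell was 0 in the fits that lacked replicate 2 of either group or LIGHT replicate 3.

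The counts of each list below stand beside 17.7% of all tested genes called higher and 5.41% called lower. None was tested against these shares. Among 12 other inflammasome sensors 5 were tested and 1 rose. It was Nlrp10, a member of the NLR family found in the epidermis, at 3.86, 4.67 and 4.91 TPM in control and 9.81, 12.2 and 10.8 TPM in LIGHT libraries. The difference exceeded that of Zbp1 (log2 difference 1.12, SE 0.12, limma adjusted p = 0.002), and the call held in all 15 other settings. Ifi204, a nucleic acid sensor of the AIM2-like family and the most abundant of the list, stood at 140 to 153 TPM in control and 122 to 180 TPM in LIGHT libraries (log2 difference -0.05, SE 0.15, limma adjusted p = 0.839). Naip2, a receptor of bacterial secretion system rod proteins, and Nlrp1b, singled out after their values were seen, had LIGHT libraries above all control libraries but missed the threshold (log2 differences 0.50 and 0.49, limma adjusted p = 0.0742 and 0.0708). Nlrc4, the partner that Naip5 needs, was under the filter, with 0.18 to 0.51 TPM over the 6 libraries.

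Of 9 inflammasome regulators 4 rose and 1 fell. Irf8, a transcription factor of myeloid cells that drives Naip genes, went from 35.9 to 62.5 TPM in the means (log2 difference 0.80, limma adjusted p = 0.0171, lost without control replicate 3). Txnip, P2rx7, the receptor for extracellular ATP, and Panx1, an ATP-releasing channel, rose with log2 differences of 0.68, 0.53 and 0.42 (limma adjusted p = 0.0356, 0.0207 and 0.034). Each of these 3 lost its call in 5 to 8 of the other settings. Serpinb1a, an inhibitor of neutrophil proteases that also restrains inflammatory caspases, fell by 0.40 on the log2 scale, from 245 to 187 TPM, as the most abundant gene of the list (limma adjusted p = 0.0343, lost in 6 of 15 other settings). Nek7, the kinase that Nlrp3 needs, was at 28.5 and 25.7 TPM, picked for mention after its values were seen (log2 difference -0.15, limma adjusted p = 0.324). With trimmed-mean factors Nek7 was called lower (-0.28, adjusted p = 0.0335).

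Among 5 other caspases 2 rose and 1 fell. Besides Casp12, the highest of the list in its mean over 6 libraries, Casp8, which can cut gasdermins C and D, went from 25.2 to 35.4 TPM (log2 difference 0.48, limma adjusted p = 0.0212). Its call was lost without any 1 of control replicates 2 and 3 and LIGHT replicates 1 and 2. Casp14, a caspase of cornifying keratinocytes, stood at 5.84, 8.51 and 10.3 TPM in control and 4.39, 3.86 and 5.75 TPM in LIGHT libraries. It fell by 0.69 on the log2 scale (limma adjusted p = 0.0474), and the call was lost in 7 of 15 other settings.

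Of 6 Zbp1 and necroptosis partners 2 rose. Irf1, an interferon-induced transcription factor and the most abundant of the list, went from 219 to 351 TPM (log2 difference 0.68, limma adjusted p = 0.0236). Ripk3, the kinase that Zbp1 engages, went from 5.52 to 8.67 TPM (log2 difference 0.57, limma adjusted p = 0.0387). These calls were lost in 7 and 6 of 15 other settings. Mlkl, the pore-forming end of necroptosis, was at 52.8 ± 5.20 and 63.8 ± 17.2 TPM, chosen for mention after its values were seen (limma adjusted p = 0.367).

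The guanylate binding proteins and GTPases that help caspase-11 reach bacterial lipopolysaccharide rose in 4 of 5 genes, with a median difference of 0.92. Gbp5 stood at 26.5, 39.0 and 27.4 TPM in control and 138, 84.2 and 85.5 TPM in LIGHT libraries (log2 difference 1.68, SE 0.22, limma adjusted p = 0.00319). Gbp2, the most abundant, Gbp3 and Irgb10 (listed as Gm12250) rose by 0.80, 1.04 and 0.92 on the log2 scale (limma adjusted p = 0.0196, 0.0109 and 0.0225). The calls of Gbp5 and Gbp3 held in all 15 other settings, and those of Gbp2 and Irgb10 were lost in 2 and 3. Gbp genes are close copies and can share reads.

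Of 4 granule proteases reported to cut gasdermins, 3 were listed and 2 were tested, Gzma and Gzmb, and both rose. Gzma stood at 44.9, 144 and 52.9 TPM in control and 350, 249 and 224 TPM in LIGHT libraries. The log2 differences of Gzma and Gzmb were 1.93 and 1.33 (limma adjusted p = 0.0149 and 0.0296). Control replicate 2 held the highest value of both in its group. The calls were lost in 3 and 7 of 15 other settings. Whether either protease cuts a gasdermin in these tumours was not tested.

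Among the cytokines and release factors 3 of 6 rose. Il18, a caspase-1 substrate made by epithelia, stood at 22.6, 26.6 and 28.2 TPM in control and 38.7, 43.4 and 49.8 TPM in LIGHT libraries (log2 difference 0.74, SE 0.12, limma adjusted p = 0.00673, called in all 15 other settings). Il18bp, which neutralises interleukin-18 and was the most abundant of the list, went from 117 to 204 TPM (log2 difference 0.76, limma adjusted p = 0.0239), and Ninj1, which ruptures the membrane of dying cells, from 57.4 to 72.4 TPM (0.33, 0.0455). The calls of Il18bp and Ninj1 were lost in 3 and 10 of 15 other settings. Il1b, singled out after its values were seen, stood at 76.2, 71.2 and 52.0 TPM in control and 47.6, 37.8 and 76.0 TPM in LIGHT libraries, with overlapping groups (log2 difference -0.34, SE 0.25, limma adjusted p = 0.365).

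**Figure D4:**
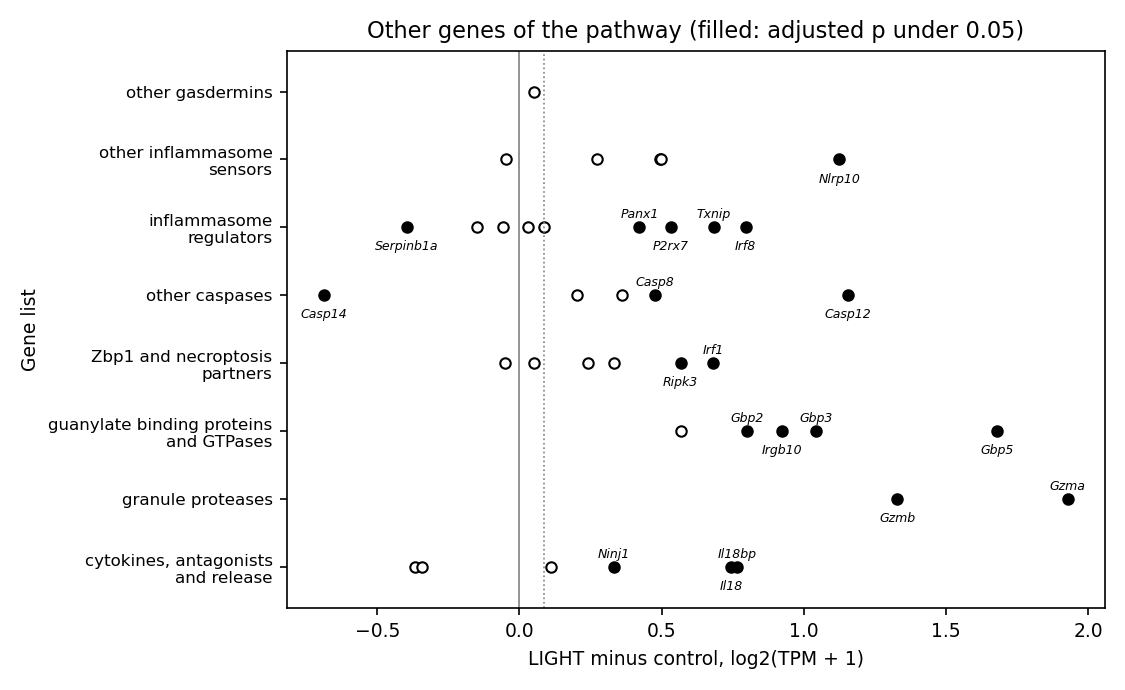
LIGHT minus control difference on the log2(TPM + 1) scale of the 39 tested genes of the 8 pathway lists. Filled and named points have an adjusted p under 0.05 and the dotted line is the median of all tested genes at 0.09. Casp12, Nlrp10, Gbp3, Gbp5, Gzma and Gzmb lie beyond 1, and Serpinb1a and Casp14 are the 2 genes called lower.

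Several marker lists of other cells also differed between the groups, beside 17.7% of all tested genes called higher and 5.41% called lower. Of 12 macrophage and monocyte markers 7 rose and 0 fell, with summed levels of 829 to 945 TPM in the controls and 1420 to 1908 TPM with LIGHT, and none of them was at 0. Of 7 T cell markers 6 rose, with sums of 49.6 to 113 and 178 to 222 TPM. Of 6 dendritic cell markers 2 were tested and both rose (Ccr7 and Itgax), with sums of 19.4 to 23.2 and 41.2 to 46.7 TPM. Of 9 listed interferon response genes 6 rose, with sums of 1385 to 1939 and 3529 to 5695 TPM. Of 12 differentiated squamous markers 4 fell and 1 rose, with sums of 43331 to 59764 and 32226 to 43711 TPM. Neutrophil markers gave 0 calls among 5 tested, skeletal muscle 0 among 10, basal keratinocyte 0 among 7, fibroblast 0 among 5, endothelial 0 among 4 and red blood cell markers 0 among 4. The basal keratinocyte sums still did not overlap, at 15890 to 18525 TPM in the controls and 11958 to 15690 TPM with LIGHT. The 5 B cell markers were under the filter, with sums of 0.3 to 0.98 and 1.35 to 1.83 TPM. The part of these shifts in the differences of Gsdmd, Casp4, Zbp1, Aim2 and Pycard was not tested.

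The genes whose levels were most like those of Gsdmd over the 6 libraries were Slc25a20, Bcar1 and Exd2, with Pearson r of 0.999, 0.997 and 0.997 on the log2 scale. For Casp4 they were Tap2, Clec2d and Abi3bp, with r of 0.999, 0.998 and 0.997. Of 13157 other tested genes, 440 had an r over 0.95 with Gsdmd and 596 with Casp4. The 6 libraries fall into 2 groups, so the likeness is a description.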

How the data were processed

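Whole-tumour RNA depleted of ribosomal RNA was sequenced, per the labels' protocols. The authors deposited TPM per gene, 1 column per library per the file headers, and each column sums to 1000000 within rounding. HISAT, Bowtie2 and GRCm38.p6 stand in the submitters' processing notes, and the quantifier and annotation were not given in the sources used here. TPM keeps no depth, so no counting interval can be computed.

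Tests ran on log2(TPM + 1) for the 13167 genes that reached 1 TPM in 3 or more libraries, using limma 3.58.1 (R 4.3.3, mean-variance trend, 2-sided, Benjamini-Hochberg adjusted p under 0.05 over all of them). Such differences understate the change of low genes. List sums are sums of TPM. Ratios were tested by exact permutation (scipy 1.17.1). The limma test was checked on simulated data. Coordinates and promoter windows are RefSeq's for GRCm38.p6, and Irgb10 was matched by its synonym.

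The 10 genes, the lists and the tests were chosen with earlier results of these data known. Named genes are the 10 members, Tnfsf14, every pathway gene called, the most abundant gene of each pathway list, and the 3 genes most correlated with the gasdermin and with the other member of smallest p. Any other gene named, such as Nlrc4, the gasdermin paralogs and single markers, was chosen after its values were seen. Alternatives were pseudocounts of 0.1 and 0.5, no filter, a filter at 5 TPM, trimmed-mean factors on the TPM (trimming 30% of log ratios and 5% of levels at either end), quantile normalization, leaving out any 1 library, the replicate number as a block, no trend and robust limma. For the pathway lists they were added after seeing the data.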

Additional observations from a re-analysis of the deposited data

How the results depend on the processing

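Gsdmd, Zbp1 and Casp4 were called higher in all 15 other settings, with log2 differences of 0.51 to 0.72, 0.74 to 1.05 and 0.82 to 1.07, and Gsdmc, Naip5 and Casp1 were called in none. The number of the 10 genes called higher was 4 to 6, and 0 were called lower, in every setting. After trimmed-mean scaling Pycard lost its call (0.64) and Nlrp3 stood at -0.067, and after quantile normalization Aim2 lost its call (0.41) and Nlrp3 stood at -0.25. With any 1 library left out, the log2 difference of Pycard ranged from 0.63 to 0.92, that of Gsdma from 0.44 to 0.95 and that of Nlrp3 from -0.016 to 0.073. Over all tested genes, 1637 were higher and 2005 lower after trimmed-mean scaling, and 1410 were higher and 1813 lower after quantile normalization, against 2325 and 712. With any 1 library left out 1145 to 1888 were higher and 314 to 773 lower, on fewer samples. The cause of the other changes was not tested. Aim2, Nlrp3 and Naip5 were not tested with the filter at 5 TPM. The replicate numbers were not taken to pair the libraries, since the labels do not say that they do. Deviations of same-numbered libraries correlated at 0.37, 0.24 and 0.01. Control replicates 1 and 2 correlated best with the LIGHT library of the same number, and control replicate 3 with LIGHT replicate 2 (0.33). These values do not settle whether the numbers pair libraries. With the replicate block 2325 genes were higher and 907 lower, and Gsdma was called (0.67, limma adjusted p = 0.0122). The depth is unknown, and Nlrp3, Naip5 and most gasdermin paralogs lie near 1 TPM or below.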
